A study of Mus musculus with 5 samples.

Results

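To describe the killing machinery of lymphocytes in the injured kidney, 10 genes were followed by symbol through the droplet counts: the granzymes Gzma, Gzmb, Gzmk and Gzmm, the pore-forming protein perforin (Prf1), the granule membrane protein Nkg7, Fas ligand (Fasl), interferon gamma (Ifng) and the receptors Klrk1 and Klrd1. They are 10 of the 32285 genes counted, and all 10 were detected. The mice were male wild type C57BL/6 of 8 to 10 weeks. Aristolochic acid I (AAI), a nephrotoxic plant compound, was injected into the peritoneum at 3 mg/kg every 3 days over 2 weeks. AKI kidneys were taken at week 2 (2 libraries, AKI 1 and AKI 2) and CKD kidneys at week 4, after 2 weeks without AAI (2 libraries, CKD 1 and CKD 2). The control, which received vehicle and stands at baseline, was 1 library. The AKI and CKD groups thus differ in week and in time since the last dose, which cannot be told apart. The study's methods give these sample sizes but do not say whether each library was a separate mouse, so p-values measure the spread between libraries, which may be technical.

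Cytotoxic lymphocytes kill by releasing granules onto a target cell. Perforin opens the target membrane and granzymes, which are serine proteases, enter and start cell death, while Fasl kills through the Fas receptor and Ifng raises antigen presentation and activates macrophages. Klrk1 (NKG2D) is an activating receptor for stress ligands, and Klrd1 (CD94) pairs with NKG2 chains to read the non-classical class I molecule Qa-1. CD8 T cells and natural killer (NK) cells are the main users of this machinery, and in the kidney both can meet injured tubule cells.

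The promoters of the 3 genes that changed in CD8 T-like cells between AKI and CKD (Fasl, Prf1 and Gzmm) are shown with those of Gzma and Nkg7, which did not pass the test there. The sequences are from RefSeq on GRCm38.p6 and run from 250 bases before to 50 after the start site, 5′ to 3′ on the gene's strand. Promoters were found for 9 of the 10 genes, with 2 start sites for Gzmm, of which the first is shown. Klrd1 had no entry. Capitals mark matches on either strand to the letters of a RUNX core (TGTGGT, read as ACCACA on the other strand) or a T-box core (GGTGTGA, read as TCACACC).
Fasl, chr1:161788446-161788745, minus strand: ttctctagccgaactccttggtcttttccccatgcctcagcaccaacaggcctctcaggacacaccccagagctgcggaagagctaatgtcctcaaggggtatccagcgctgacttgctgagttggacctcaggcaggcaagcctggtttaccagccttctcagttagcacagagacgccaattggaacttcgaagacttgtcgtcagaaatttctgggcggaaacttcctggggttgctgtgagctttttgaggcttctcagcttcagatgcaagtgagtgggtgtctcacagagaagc
Prf1, chr10:61297586-61297885, plus strand: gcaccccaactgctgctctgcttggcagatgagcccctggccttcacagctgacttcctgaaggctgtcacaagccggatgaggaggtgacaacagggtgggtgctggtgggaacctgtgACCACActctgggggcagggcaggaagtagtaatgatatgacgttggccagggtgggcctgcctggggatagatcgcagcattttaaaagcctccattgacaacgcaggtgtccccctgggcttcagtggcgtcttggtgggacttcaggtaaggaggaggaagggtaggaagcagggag
Gzmm, chr10:79688770-79689069, plus strand: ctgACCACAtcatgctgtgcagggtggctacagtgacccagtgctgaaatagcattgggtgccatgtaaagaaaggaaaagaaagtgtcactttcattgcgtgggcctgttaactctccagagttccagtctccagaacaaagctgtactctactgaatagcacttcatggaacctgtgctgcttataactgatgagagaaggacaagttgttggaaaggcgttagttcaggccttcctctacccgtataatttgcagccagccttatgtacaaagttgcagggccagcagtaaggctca
Gzma, chr13:113100932-113101231, minus strand: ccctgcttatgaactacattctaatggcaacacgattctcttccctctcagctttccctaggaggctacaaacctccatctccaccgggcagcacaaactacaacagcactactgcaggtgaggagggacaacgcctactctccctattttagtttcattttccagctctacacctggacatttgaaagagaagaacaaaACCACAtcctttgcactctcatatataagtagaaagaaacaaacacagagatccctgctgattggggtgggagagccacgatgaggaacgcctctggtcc
Nkg7, chr7:43436888-43437187, plus strand: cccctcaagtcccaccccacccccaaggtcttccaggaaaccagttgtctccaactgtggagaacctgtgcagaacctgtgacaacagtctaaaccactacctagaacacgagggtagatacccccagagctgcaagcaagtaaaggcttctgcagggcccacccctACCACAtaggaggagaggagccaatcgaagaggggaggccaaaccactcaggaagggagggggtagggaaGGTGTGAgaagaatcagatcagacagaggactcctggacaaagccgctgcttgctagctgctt

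The RUNX letters were in 6 of the 10 promoters of the 9 genes, each of another gene, against 16.8% of all 32851 promoters in the table. In Prf1 the match began 130 bases before the start site, in Gzma 50, in Nkg7 83 and in the first Gzmm promoter 247. Gzmb held a pair of matches, at 93 and 34 bases, and Klrk1 1 match at 129 bases. The T-box letters were in 3 of the 10 promoters, against 3.98% of all promoters: Nkg7 (13 bases before the start), Gzmk (75) and the second Gzmm promoter (189). Neither set of letters was in the Fasl or Ifng window. These are matches of letters, not binding sites. Gzma and Gzmk are neighbours on chromosome 13, 70.6 kb apart, and Klrk1 and Klrd1 on chromosome 6, 11.5 kb apart. Prf1, Gzmm and Ifng share chromosome 10.

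After the filters 53718 cells remained, between 8496 and 16330 a library, with median depths of 2842.5 to 5554 UMIs (unique molecules counted). In the control 38.71% of barcodes exceeded the mitochondrial limit, against 11.09 to 12.7% in the other libraries. The control also shared 131 barcodes with CKD 2, and for 99 of them the CKD 2 cell held over 20 times the UMIs. Of the 4 classes, leaving those 99 out changed only the control's CD4 T-like cells, from 302 to 301. The 40 control levels of the members could therefore hardly move, and this check says little about them. CKD 1 held the most called doublets (2984, against 672 to 1004 elsewhere). Lymphocyte classes were built without the 10 genes. The 8328 CD8 T-like cells carried Cd8a and Cd8b1 and no Ncr1, the 7792 CD4 T-like cells carried Cd4, and the 372 NK-like cells carried Ncr1, Klrb1c and Tyrobp. The 275 gamma-delta T-like cells were led by Il17a and Trdc, so they are of the interleukin 17 kind. A gate on Trdc and Cd3 genes instead took 41, 57, 62, 41 and 97 cells (control, AKI 1, AKI 2, CKD 1 and CKD 2), of which 144 in all were in this cluster and 96 in the double-positive cluster described next, so the class holds only some of the gamma-delta T cells. CD8 T-like clusters t1 and t16, and CD4 T-like clusters t4 and t2, were led by heat shock genes (Hspa1b, Hspa1a) and interferon-response genes (Ifit1, Ifit3) respectively. A cluster of 774 cells with both Klrb1c and Cd3e stayed apart as Klrb1c Cd3e double-positive.

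Levels are UMIs per 10000 UMIs of a class in a library, given for control, AKI 1, AKI 2, CKD 1 and CKD 2 in that order. They compare classes and libraries for 1 gene, not genes with each other. Levels between classes and against the single control are a description without a test.

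The 10 genes were concentrated in T-like and NK-like cells. Of all UMIs in kept cells of the 5 libraries summed, these held between 69.3% (Klrd1) and 94.6% (Prf1). CD8 T-like cells alone held from 30.7% (Ifng) to 50.3% (Gzmb). By library the share in T-like and NK-like cells was lowest in CKD 1 for every gene but Gzmm, down to 50.4% for Klrd1 and 58.1% for Klrk1. For Gzmm it was lowest in the control, at 45.7%. An unnamed cluster of 1394 cells, 1234 of them from CKD 1, was led by Dut and Pclaf. It scored 0.37 for T or NK markers, under the limit of 0.5, and 0.07 for the best other class. Its cells count here as outside the T-like and NK-like classes. Their part in the low CKD 1 shares was not tested. NK-like cells were at most 1.30% of the cells of a library, yet they held 25.7% of the Gzma and 27.3% of the Prf1 UMIs. CD4 T-like cells held 35.6% of the Ifng, 23.4% of the Fasl and 14.2% of the Gzmk UMIs. The NK-like share of Gzma changed most with the library, from 76.2% in the control to 15.7% and 12.7% in AKI and 25% and 24.2% in CKD. For Prf1 it was 53.2% in the control, 16.7% and 8.92% in AKI and 36.7% and 35.4% in CKD. These shares follow the number of cells caught as well as the level per cell: CD8 T-like cells numbered 339, 2678, 2565, 1205 and 1541, and NK-like cells 90, 41, 33, 94 and 114.

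**Figure D1:**
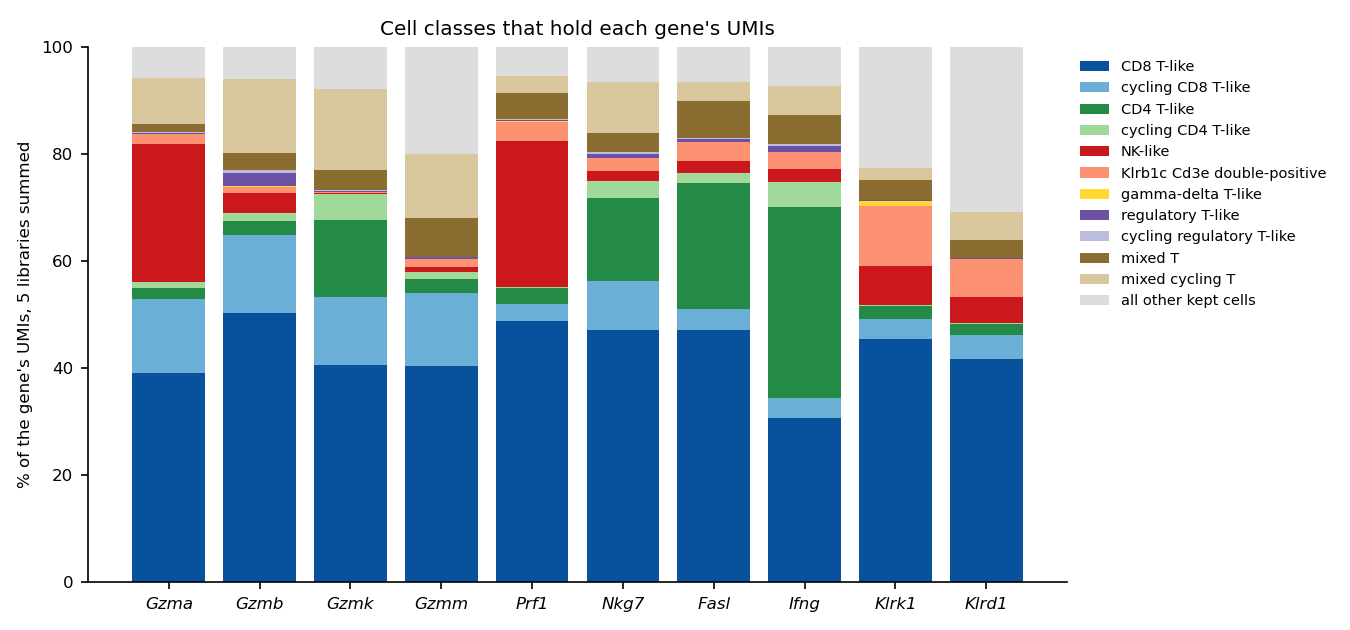
Stacked bars show the percent of each gene's UMIs, summed over the 5 libraries, that lies in each lymphocyte class, and grey is all other kept cells. NK-like cells (red) hold 25.7% of the Gzma and 27.3% of the Prf1 UMIs, while CD4 T-like cells (green) hold 35.6% of the Ifng UMIs.

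Gzma, the tryptase granzyme, was highest in NK-like cells. In NK-like cells its level was 58.5, 44.6, 34.2, 47.1 and 41.0, with 18.0 to 22.4 UMIs in each positive cell. In CD8 T-like cells it was 1.40, 2.74, 2.58, 2.61 and 3.03, so no library of one class came near the other. The control was the lowest library in CD8 T-like cells and the highest in NK-like cells. Within the CD8 T-like class Gzma was concentrated in cluster t7, led by Ly6c2, at 6.55 over all libraries, against 0.923 in the interferon-gene cluster t16. In CD4 T-like cells it was 0.0389, 0.142, 0.184, 0.127 and 0.158. The CKD 1 value there lay below the 0.185 of that library's proximal tubule-like cells, which should lack the gene, and is read as background. Among cells of the Il17a-led gamma-delta T-like class 0 UMIs were seen in the control and both AKI libraries. Cells gated by Trdc differed, with 3.63, 0.0384, 1.58, 0 and 1.35, on 49, 1, 43, 0 and 60 UMIs. The control's gated cells were thus above its CD8 T-like cells. The gate took in 6 cells of the NK-like class, in which a positive cell held 18.0 to 22.4 Gzma UMIs. The part of such cells in the gated Gzma level was not tested.

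Gzmb, the granzyme that cleaves caspases, was less exclusive. NK-like cells gave 6.03, 3.77, 1.58, 4.22 and 3.39, and CD8 T-like cells gave 2.34, 2.09, 2.45, 2.10 and 1.70. The ranges overlapped, because AKI 2 was lower in NK-like than in CD8 T-like cells. AKI 2 held 33 NK-like cells, the fewest, and its NK-like cells also had the most Cd8a (0.788, against 0 to 0.0974 elsewhere). The part of that admixture in the Gzmb value was not tested. Cycling CD8 T-like cells, which were kept apart, held Gzmb at 2.39 and 1.38 in AKI and 3.30 and 2.96 in CKD. CD4 T-like cells held 0.0292, 0.0764, 0.081, 0.149 and 0.148.

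Gzmk was higher in CD8 and CD4 T-like than in NK-like cells. Gzmk was 0.673, 0.997, 0.952, 1.01 and 0.886 in CD8 T-like cells and 0.146, 0.355, 0.427, 0.286 and 0.340 in CD4 T-like cells. NK-like cells held 1 or 2 Gzmk UMIs a library, a level of 0.0195 to 0.0669. Gzmm, whose product cleaves after methionine, was rare: 0.0949, 0.0433, 0.0309, 0.270 and 0.112 in CD8 T-like cells, on 11, 46, 32, 134 and 102 UMIs. NK-like cells held 0 to 3 Gzmm UMIs a library, too few to place them against CD8 T-like cells. Gzmm had 0 UMIs in the gamma-delta T-like cells of every library, which allows levels up to 0.234, 0.112, 0.163, 0.141 and 0.0664.

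Prf1, which encodes perforin, separated the NK-like class from all others. It stood at 6.43, 8.13, 3.48, 5.46 and 4.56 there, and at 0.543, 0.465, 0.424, 0.254 and 0.274 in CD8 T-like cells. The Klrb1c Cd3e double-positive cells, at 0.592, 0.383, 0.138, 0.202 and 0.170, overlapped the CD8 T-like range and were below the CD8 T-like cells of the same library in all but the control. CD4 T-like cells held at most 0.044. Nkg7, a granule membrane protein needed for degranulation, was shared instead: 17.5, 15.3, 15.5, 14.7 and 13.9 in NK-like cells and 12.1, 13.8, 15.7, 14.2 and 14.0 in CD8 T-like cells, with overlapping ranges. CD4 T-like cells held 6.28, 5.02, 5.83, 4.65 and 4.44. Nkg7 in the Il17a-led gamma-delta T-like class was 0.469, 0.411, 0.544, 0.566 and 0.598, and the CKD 1 value was below the 0.961 of the tubule background. In the Trdc-gated cells it was 7.94, 2.88, 4.85, 3.47 and 4.44, near the CD4 T-like levels.

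Fasl, the death ligand, differed less between classes than Prf1. Its level was 0.819, 0.895, 0.929, 0.564 and 0.555 in CD8 T-like cells, 0.745, 0.716, 1.31, 1.20 and 0.779 in NK-like cells and 0.545, 0.453, 0.528, 0.286 and 0.342 in CD4 T-like cells. Neighbours in the order NK-like, CD8 T-like, double-positive and CD4 T-like overlapped at each step. Gamma-delta T-like cells held at most 0.0544. Ifng, the cytokine, was highest in NK-like cells at 10.4, 9.17, 9.26, 9.47 and 9.72, above every library of every other class. CD4 T-like cells followed at 8.88, 6.05, 6.74, 6.47 and 5.18, and CD8 T-like cells at 5.18, 4.85, 5.71, 4.96 and 4.2. In gamma-delta T-like cells Ifng rested on 1, 3, 2, 9 and 24 UMIs (levels 0.0781, 0.112, 0.109, 0.424 and 0.532), and the CKD 1 value was below the tubule background of 0.433. In the Trdc-gated cells Ifng was 2.82, 1.57, 3.35, 2.42 and 2.10.

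The receptors were highest in NK-like cells and next in the double-positive cells. Klrk1 was 6.64, 3.19, 4.73, 4.25 and 5.51 in NK-like cells, 4.46, 3.10, 3.18, 2.61 and 3.17 in double-positive cells and 2.17, 1.21, 1.47, 1.22 and 0.997 in CD8 T-like cells. The Il17a-led gamma-delta T-like cells held Klrk1 at 0.469, 0.672, 0.924, 0.424 and 1.02, and the Trdc-gated cells at 2.60, 1.30, 2.10, 1.37 and 2.37. Klrd1 was 3.83, 3.06, 3.94, 2.04 and 2.84 in NK-like cells and 1.19, 0.848, 1.16, 1.11 and 0.998 in CD8 T-like cells. Both receptors were also seen outside lymphocytes: plasmacytoid dendritic-like cells held Klrd1 at 0.762 in the control and 1.59 and 1.16 in CKD. In CD4 T-like cells the control stood apart for Klrk1, at 0.613 against 0.0816, 0.0825, 0.0473 and 0.0329. It did so in each of the CD4 T-like clusters t2, t3 and t4, where the control held 0.847, 0.624 and 0.581 and no other library exceeded 0.180. The NK gene Klrb1c moved with it, at 0.0487 in control CD4 T-like cells and at most 0.00383 in the others, and its part in the Klrk1 level was not tested. The CKD 1 levels of Klrk1 (0.0473) and Klrd1 (0.0642) in CD4 T-like cells were below the tubule background of 0.0636 and 0.0827.

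**Figure D2:**
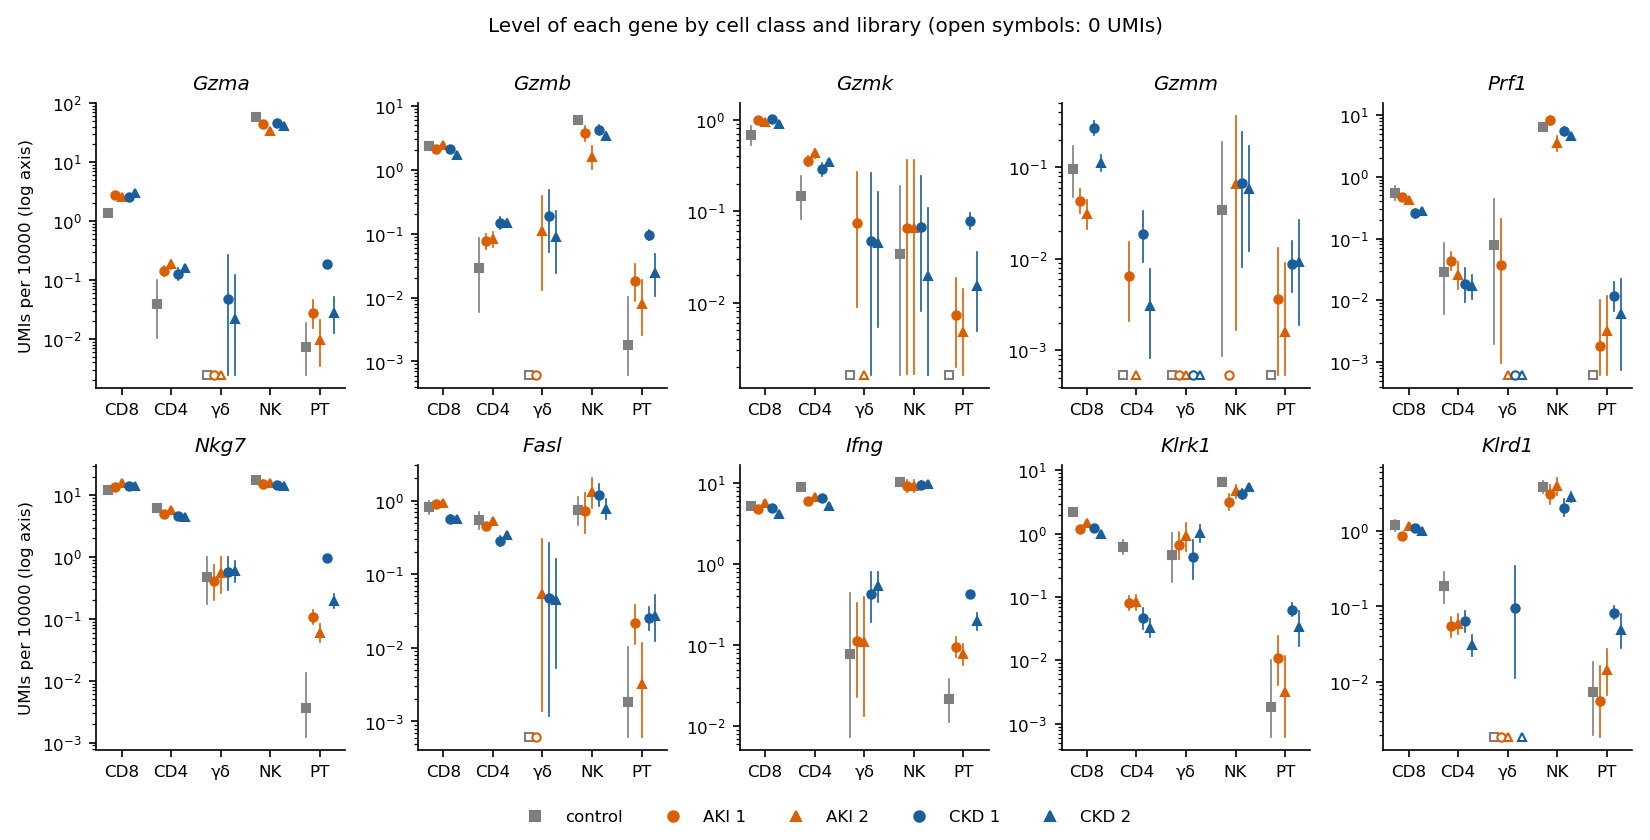
Each panel is 1 gene, with UMIs per 10000 on a log axis for CD8, CD4, gamma-delta (γδ) and NK-like cells and, as background, proximal tubule-like cells (PT), 1 symbol a library with its 95% Poisson interval. Gzma and Prf1 stand highest in NK-like cells (34.2 to 58.5 and 3.48 to 8.13), while Nkg7 overlaps between CD8 and NK-like cells.

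To separate how many cells held a transcript from how much each held, every cell was thinned to 1000 UMIs. In CD8 T-like cells the share with a UMI of Nkg7 was then 67.1, 71.4, 74.9, 70.2 and 70.1%, and of Ifng 30.6, 29.1, 34.2, 32.3 and 29.1%. Fasl was in 8.31, 8.03, 8.59, 5.64 and 6.11%, and Prf1 in 4.45, 4.90, 4.26, 2.32 and 2.21%. Gzmm was in 0.593, 0.339, 0.351, 2.24 and 0.715%. For these 3 genes the AKI and CKD libraries lay apart at equal depth, which is a description: the levels of 49.5% of all genes tested in this class did so too. Unthinned, the CD8 T-like shares were 24.2, 26.4, 27.5, 18.8 and 24.9% for Fasl, 15.3, 15.1, 13.8, 9.71 and 13.9% for Prf1 and 3.24, 1.49, 1.17, 6.64 and 4.74% for Gzmm, and the Prf1 groups then overlapped, with CKD 2 the deepest library (median 5486 UMIs a cell, against 3230 to 3832). In thinned proximal tubule-like cells of CKD 1, at a median of 2528 UMIs before thinning, the background was 13.4% for Nkg7, 7.49% for Ifng and 2.78% for Gzma, but 0.373% for Fasl and for Prf1 and 0.102% for Gzmm. In B lymphocyte-like cells (median 2146 to 2967 UMIs) no thinned cell held Fasl or Gzmm.

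In NK-like cells the thinned shares of Gzma, Gzmb and Prf1 were higher than in CD8 T-like cells, for Gzmb narrowly in AKI 2 (12.1 against 11.2%). The share of Gzmk was lower, at 0, 2.56, 0, 1.06 and 0% against 6.23, 9.27, 8.67, 10.5 and 7.54% in CD8 T-like cells. Gzma was in 82.0, 76.9, 69.7, 74.5 and 78.8% of cells, and Prf1 in 34.8, 41.0, 30.3, 41.5 and 33.6%. Gzmb was in 37.1% of control, 15.4 and 12.1% of AKI and 31.9 and 23% of CKD cells (unthinned 60, 31.7, 24.2, 47.9 and 40.4%). A thinned NK-like cell held on average 3.66, 3.21, 2.97, 3.32 and 3.22 of the 10 genes, against 1.61, 1.58, 1.72, 1.63 and 1.5 in CD8 T-like cells. Gamma-delta T-like cells held 0.14 to 0.20, which was not above background in every library. In CKD 1 they held 0.164, below the 0.298 of proximal tubule-like cells. In AKI 2 they were level with B lymphocyte-like cells (0.143). Elsewhere both background classes were lower, at 0.00945 to 0.0621 in proximal tubule-like and 0.00787 to 0.0806 in B lymphocyte-like cells. NK-like cells with 4 or more of the genes made up 53.9% in the control, 48.7 and 39.4% in AKI and 43.6 and 41.6% in CKD.

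**Figure D3:**
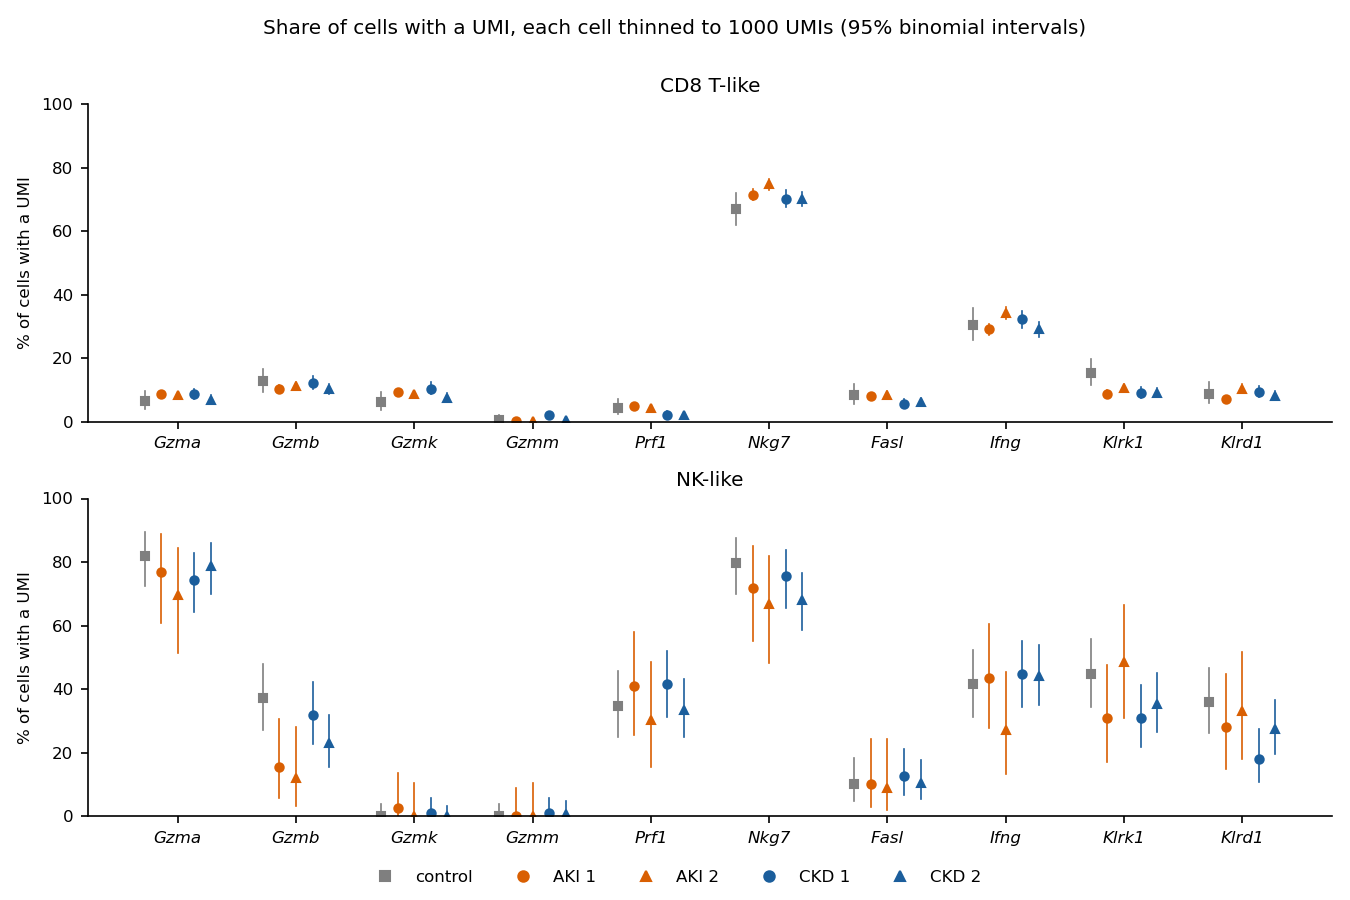
Percent of CD8 T-like (upper) and NK-like (lower) cells with at least 1 UMI of each gene after thinning each cell to 1000 UMIs, 1 symbol a library, with 95% binomial intervals. CD8 T-like Prf1 lies at 4.26 to 4.90% in AKI and at 2.21 and 2.32% in CKD, and NK-like Gzma at 69.7 to 82.0% throughout.

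Some genes were found in the same CD8 T-like cells. Of thinned cells with Gzma, 40.9, 34.2, 35.7, 32.7 and 31.5% also held Gzmb, against 10.8, 8.25, 9.03, 10.4 and 8.74% of those without Gzma. Klrd1 was in 19.2, 13.9, 20.1, 18.2 and 13.6% of cells with Klrk1 and in 7.02, 6.50, 9.40, 8.68 and 7.65% of those without. Fasl and Ifng showed no such pattern: Ifng was in 28.6, 23, 28.6, 39.7 and 27.7% of Fasl-positive cells and in 30.7, 29.6, 34.8, 31.8 and 29.2% of Fasl-negative cells, higher among the Fasl-positive cells of CKD 1 alone. In every library the cells with Gzma were the more likely to hold Gzmb. Gzmb and Prf1 did not behave so. Prf1 was in 9.30, 6.81, 5.90, 1.35 and 1.26% of cells with Gzmb, on 4, 19, 17, 2 and 2 cells. Among cells without Gzmb it was in 3.74, 4.67, 4.05, 2.46 and 2.32%, so the direction turned in CKD. For Gzma and Prf1 the direction also differed between libraries.

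To test which of the 10 genes changed between AKI and CKD, UMIs were summed per library over each class. In CD8 T-like cells Fasl and Prf1 fell and Gzmm rose from AKI to CKD. These are 3 of 10 genes, against 2.27% of all 11757 genes tested (267 called by the quasi-likelihood test of edgeR at a Benjamini-Hochberg adjusted p under 0.05). In the direction of higher in CKD it was 1 of 10, against a background of 1.28%, and in the direction of lower in CKD 2 of 10, against 0.995%. The levels of the same 3 genes did not overlap between the groups, which by itself is no more than the background, since 49.5% of all genes tested did not overlap. The median log2 fold change was -0.13 over the 10 genes and -0.01 over all genes tested.

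Fasl was 1.62-fold higher in AKI (log2 CKD/AKI -0.69, SE 0.09, 95% interval -0.91 to -0.48, n = 2 and 2, edgeR adjusted p = 0.0226). Both AKI libraries (0.895 and 0.929) stood above both CKD libraries (0.564 and 0.555), and the control (0.819) lay between them. Prf1 was 1.66-fold higher in AKI (log2 -0.73, SE 0.12, -1.0 to -0.46, edgeR adjusted p = 0.0338), and its control (0.543) was above all 4 other libraries. Gzmm was 4.93-fold higher in CKD (log2 2.30, SE 0.41, 1.34 to 3.26, edgeR adjusted p = 0.0427), but its CKD libraries differed from each other, at 0.270 (interval 0.226 to 0.320) and 0.112 (0.0913 to 0.136). All 3 calls rested on AKI 1: without it the adjusted p was 0.0837 for Fasl, 0.212 for Prf1 and 0.0573 for Gzmm, with log2 fold changes of -0.74, -0.68 and 2.56. The Fasl call was also lost without AKI 2 (adjusted p = 0.0513). The Gzmm log2 fold change ranged from 1.64 without CKD 1 to 2.83 without CKD 2. Cycling CD8 T-like cells, a class apart that was not tested alone, did not share the falls. Prf1 there was 0.0216 and 0.109 in AKI and 0.119 and 0.123 in CKD. Fasl was 0.259 and 0.369 in AKI and 0.297 and 0.332 in CKD. Gzmm was higher in CKD there too, at 0.194 and 0.154 against 0.0432 and 0.

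The other 7 genes did not pass the test in CD8 T-like cells. Gzma had a log2 fold change of 0.10 (edgeR adjusted p = 0.724), Gzmb -0.26 (0.325), Gzmk -0.04 (0.873), Ifng -0.20 (0.414), Klrk1 -0.27 (0.322) and Klrd1 0.07 (0.853). For Nkg7 the value was -0.06, with an interval of -0.31 to 0.20. Without CKD 1, Gzmb and Klrk1 passed, at -0.37 (edgeR adjusted p = 0.00933) and -0.38 (0.0103). These values do not show that the 7 genes were equal in AKI and CKD. Cells gated by markers in place of clusters added Ifng (-0.48, edgeR adjusted p = 0.0268) and Klrk1 (-0.67, 0.0296). That gate also took in 509 cycling CD8 T-like, 896 mixed T and 545 mixed cycling T cells. Cycling CD8 T-like cells numbered 62 and 54 in AKI and 232 and 192 in CKD. Their Klrk1 was 0.346 and 0.723 in AKI and 0.475 and 0.520 in CKD, below the CD8 T-like levels. The part of this makeup in the added calls was not tested.

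The differences were looked for within the 5 CD8 T-like clusters, which held 3523, 2165, 1121, 959 and 560 cells (t0, t1, t7, t9 and t16). Prf1 was lower in both CKD libraries than in both AKI libraries in all 5, and Gzmm was higher in all 5. In t0 the Prf1 levels were 0.615, 0.637, 0.534, 0.308 and 0.352, and in t1 0.358, 0.317, 0.312, 0.198 and 0.250. Fasl was lower in CKD in t0, t1, t7 and t9, for example at 1.08, 1.10, 1.10, 0.682 and 0.654 in t0, while in the interferon-gene cluster t16 the AKI values of 0.452 and 0.446 lay between the CKD values of 0.224 and 0.536. The highest Gzmm level was in the Ly6c2 cluster t7 of CKD 1 (0.515, against 0.0449 and 0.0765 in AKI). Counted per positive cell without thinning, Fasl-positive CD8 T-like cells held 1.16, 1.35, 1.36, 1.23 and 1.32 UMIs. Gzmm-positive cells held 1.0, 1.15, 1.07, 1.68 and 1.40. These counts lay lower for Fasl and higher for Gzmm in CKD than in AKI, as did the thinned shares of positive cells. Median depth was 3742 and 3760 UMIs in AKI, 3832 in CKD 1 and 5486 in CKD 2. Only CKD 1 thus compares with AKI at similar depth, and the CKD 2 counts mix content with depth. Summed markers of proximal tubule in CD8 T-like cells were 2.62, 0.838, 0.920, 1.46 and 0.261, of macrophages 0.224, 1.12, 1.49, 0.498 and 0.276, and of NK cells 1.73, 1.33, 1.32, 1.05 and 0.794. Ncr1 was 0 in all 5. The part of these markers in the 3 changes was not tested.

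**Figure D4:**
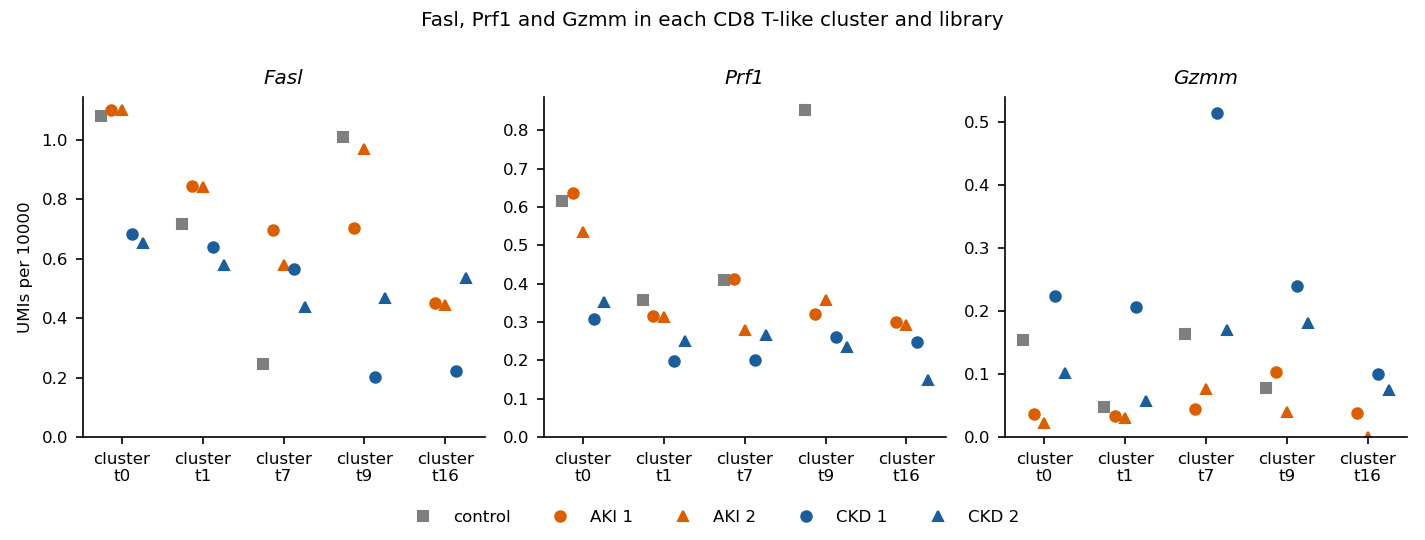
Level (UMIs per 10000, linear axis from 0) of Fasl, Prf1 and Gzmm in each of the 5 CD8 T-like clusters, 1 symbol a library, for clusters with at least 20 cells in the library. Prf1 is lower and Gzmm higher in both CKD libraries than in both AKI libraries in all 5 clusters, and Fasl overlaps in t16.

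In CD4 T-like cells none of the 9 genes tested passed, against 22 of 11378 genes (0.193%; 0.0352% higher and 0.158% lower in CKD) by edgeR's quasi-likelihood test. DESeq2 called none of them either. At an unadjusted p under 0.05 there were 5: Gzmb, Prf1, Nkg7, Fasl and Klrk1. Fasl had a log2 fold change of -0.66 (SE 0.14, edgeR adjusted p = 0.156), Klrk1 -1.11 (SE 0.26, 0.17), Nkg7 -0.29 (0.295) and Gzmb 0.88 (SE 0.16, 0.12). Gzmb was 0.0764 and 0.081 in AKI and 0.149 and 0.148 in CKD, so it was higher in both CKD libraries, while Gzmk, Prf1, Nkg7, Fasl and Klrk1 were lower in both. These are 6 of 9 genes whose groups did not overlap, against 46.4% of all genes tested. The median was -0.33 over the 9 genes and -0.01 over all genes tested. Leaving out 1 CKD library brought calls: without CKD 1 Gzmb (0.93, edgeR adjusted p = 0.0215) and Klrk1 (-1.29, 0.0258), and without CKD 2 Gzmb (0.83, 0.0478) and Fasl (-0.86, 0.00505). CKD Gzmb was 0.0962 in the tubule background of CKD 1 and 0.0243 in that of CKD 2, and 0.0183 and 0.00802 in AKI, so the background rose with the same group. Its part in the Gzmb difference was not tested.

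In NK-like cells 8 genes could be tested and none passed by edgeR's quasi-likelihood test or DESeq2, against 2 of 2770 genes (0.0722%, all lower in CKD, and 0% higher). None was under 0.05 unadjusted. Gzma had a log2 fold change of 0.12 (SE 0.27, interval -0.43 to 0.67), Gzmb 0.46 (SE 0.29, -0.13 to 1.05), Prf1 -0.25, Nkg7 -0.15, Fasl -0.12, Ifng 0.02, Klrk1 0.27 and Klrd1 -0.53 (edgeR adjusted p = 0.902 for Klrd1 and 0.998 for the others). The groups did not overlap for Nkg7 and Klrd1, lower in CKD, and Ifng, higher, which is 3 of 8 genes against 32.5% of all genes tested and so near the background. With 33 to 114 cells a library the NK-like sums are thin. The Gzmb difference did not pass, and no change of its size was simulated. Of 2-fold changes simulated in genes at or above the median level, 32% were recovered in this class, against 94% in CD8 T-like cells.

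In gamma-delta T-like cells 3 genes could be tested and none passed, against 1 of 2797 genes (0.0358%, lower in CKD, and 0% higher), by edgeR's quasi-likelihood test. DESeq2 called none. Ifng was the 1 gene under 0.05 unadjusted, with a log2 fold change of 2.06 (SE 0.67, 0.63 to 3.49, edgeR adjusted p = 0.991). Nkg7 stood at 0.28 and Klrk1 at -0.03. Nkg7 and Ifng did not overlap between the groups (2 of 3 tested, against 32.9% of all genes tested), and in CKD 1 both lay below the tubule background. Gzma, not tested, was higher in CKD on 1 UMI in each library. In the Trdc-gated cells the groups of Nkg7 and Ifng overlapped, with log2 fold changes of 0.06 and -0.16 (edgeR adjusted p = 0.993 for both), so the Ifng direction turned.

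**Figure D5:**
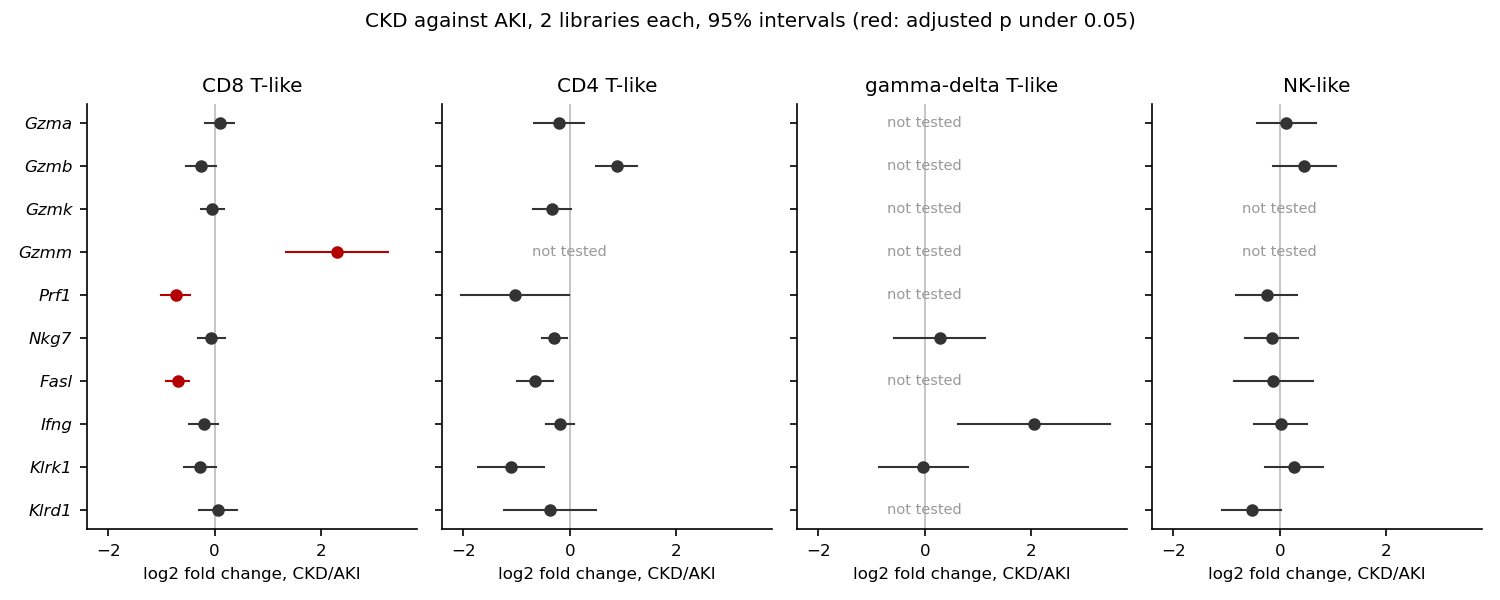
Log2 fold change of CKD over AKI with its 95% interval for each gene in each class, from edgeR's quasi-likelihood test on sums of 2 libraries a group (red: adjusted p under 0.05). In CD8 T-like cells Fasl (-0.69) and Prf1 (-0.73) lie left of 0 and Gzmm (2.30) right of it, and no gene is red in the other classes.

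The change from AKI to CKD was then compared between NK-like and CD8 T-like cells in 1 model. The median difference over all 10092 genes was 0.17 on the log2 scale (higher change in NK-like cells), and over the 10 genes 0.29. None of the 10 passed by edgeR's quasi-likelihood test, against 0.377% of genes (0.337% with the higher and 0.0396% with the lower change in NK-like cells), so no difference between the classes was shown. DESeq2 was not run for this model. At an unadjusted p under 0.05 there were 4. Gzmb came nearest, at 0.88 (SE 0.24, 0.41 to 1.36, edgeR adjusted p = 0.0605), followed by Klrk1 at 0.72 (0.164) and Prf1 at 0.68 (0.252). Without AKI 1, Gzmb (1.69, edgeR adjusted p = 2.76e-04) and Prf1 (1.24, 0.0152) passed, and with the 15% mitochondrial limit Gzmb passed (0.89, 0.042). With cycling cells included, a setting added after the data were seen, Prf1 (0.87, 0.0327) and Klrk1 (0.94, 0.00857) passed.

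The machinery around these genes was read from 50 listed killer-cell genes. In CD8 T-like cells 42 were tested, 2 were higher in CKD and 4 lower, with a median of -0.07. None of the 6 genes of granule matrix and granzyme activation (such as Srgn and Ctsc) and none of the 7 of granule release (such as Rab27a and Unc13d) passed by edgeR's quasi-likelihood test or DESeq2, and by edgeR 0 and 1 of them were under 0.05 unadjusted. The 6 other granzymes (Gzmc to Gzmg and Gzmn) were too rare to test, at levels of 0.0116 or less. Serpinb6b, a serpin that protects the killer cell from its own proteases, rose from 0.758 and 0.927 to 1.42 and 1.45 (log2 0.78, edgeR adjusted p = 0.0332). Cd160, a receptor of cytotoxic cells, rose from 0.839 and 0.793 to 1.27 and 1.48 (0.77, 0.0323). The chemokine Xcl1 fell from 10.6 and 11.5 to 5.43 and 5.96 (-0.95, 0.018), and Ccl4 from 38.6 and 38.4 to 26.0 and 23.9 (-0.62, 0.0332). The transcription factors Tbx21 (T-bet), a T-box factor, and Zeb2 fell too, Tbx21 from 0.739 and 0.769 to 0.391 and 0.439 (-0.84, 0.0226) and Zeb2 from 1.08 and 1.13 to 0.566 and 0.716 (-0.76, 0.0451). Without AKI 1 the calls of Serpinb6b (edgeR adjusted p = 0.202), Ccl4 (0.339), Cd160 (0.141), Tbx21 (0.0553) and Zeb2 (0.141) were lost, and without AKI 2 those of Ccl4 (0.188), Cd160 (0.0524) and Zeb2 (0.059). Xcl1 kept its call in every alternative run.

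In CD4 T-like cells 42 of the 50 were tested and 2 were lower in CKD (DESeq2 called 5 of 45), Xcl1 (10.0 and 11 to 4.75 and 4.81; log2 -1.17, edgeR adjusted p = 0.0232) and the chemokine Ccl3 (0.888 and 1.03 to 0.407 and 0.460; -1.17, 0.0364). Both edgeR calls were lost without AKI 1 (0.115 and 0.103) and without AKI 2 (0.255 and 0.263). Of the 50, 20 were tested in gamma-delta T-like and 28 in NK-like cells, and none passed by edgeR's quasi-likelihood test or DESeq2. There 1 and 3 were under 0.05 unadjusted by edgeR. Xcl1 did not fall in NK-like cells, at 25.8 and 24.6 in AKI and 26.5 and 27.8 in CKD. The test of the difference between NK-like and CD8 T-like cells passed for Xcl1 (1.18, SE 0.20, edgeR adjusted p = 2.91e-06) and for Ccl3 (0.84, SE 0.20, 0.0137), both above the median shift of 0.17. The Ccl3 call was lost when any 1 library was left out (0.143 without AKI 1, 0.149 without AKI 2, 0.692 without CKD 1 and 0.189 without CKD 2).

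Genes of the target cell were read as levels in tubule-like, endothelial-like and macrophage-like cells. Fas, the receptor of Fasl, was 0.0279, 0.180, 0.185, 0.223 and 0.171 in tubule-like cells, lowest in the control, and 1.32, 1.63, 1.51, 1.27 and 1.72 in endothelial-like cells. H2-T23, which encodes Qa-1, read by Klrd1 with its NKG2 partner, was 0.115, 0.625, 0.849, 0.691 and 0.645 in tubule-like cells. H2-D1, a classical class I gene, was 1.84, 8.08, 9.28, 6.98 and 6.07 there, and Ifngr1, a chain of the Ifng receptor, 0.214, 0.574, 0.501, 0.855 and 0.468. The ligands of Klrk1 were near 0: Ulbp1 ranged from 0.0018 to 0.0133 in tubule-like cells and H60c was at most 0.00117. Raet1d, Raet1e and H60b stood at or below 0.0224 in all 3 kinds of cell. In each of Fas, H2-T23, H2-D1 and Ifngr1 the control was the lowest library in tubule-like cells. Tubule-like cells pool several classes whose mix differed between libraries. Proximal tubule-like cells were 890 of 3580 in the control and 2952 of 5342 in CKD 1, and injured tubule-like cells 13 and 281. Free RNA, to which lymphocytes can add, was not removed. The part of either in these levels was not tested.

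The genes whose levels most resembled each member were sought over 52 sums of class and library among 7140 genes, by Pearson's r of log2(CPM + 1). The sums share libraries and depth, so r is a description. Gzma was most like Eomes (0.864) and Efhd2 (0.841), and Slamf7 was among the genes most like Gzmb (0.749). Gzmk was most like Gtf2i (0.791) and Cd8b1 (0.777), and Gzmm like Ly6c2 (0.711) and Ms4a4b (0.69). Eomes is a T-box transcription factor, and Cd8b1 is a chain of the CD8 coreceptor. For Prf1 they were Ugcg (0.892) and Ccl3 (0.886), for Nkg7 Epsti1 (0.93) and Ctsw (0.912), and for Fasl Dusp2 (0.946) and Slamf7 (0.921). Ifng was most like Mctp2 (0.901) and Ifitm10 (0.899), Klrk1 like Tm6sf1 (0.958) and Cd7 (0.905), and Klrd1 like Klrc1 (0.934) and Ly6c2 (0.916). Klrc1 encodes NKG2A, the chain that pairs with Klrd1. Among the members themselves the highest r was between Nkg7 and Fasl (0.89), and the lowest were between Gzmk and Klrk1 (0.01) and between Gzmk and Prf1 (0.05).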

How the data were processed

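Droplet libraries of mouse kidney were made with the 10x Chromium 3′ kit v2 according to the study's methods. The authors deposited a matrix of UMI counts for every library (genes by cell barcodes), as Cell Ranger called them and not normalized. The submitters' processing notes name Cell Ranger 7.2.0, STAR and GRCm39, whereas the file headers of the AKI and CKD libraries name Cell Ranger 5.0.0 and the control's gene list names mm10. Genes were matched by identifier and no coordinates of the counts were used. No column of another sample was present or used.

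Of 72896 barcodes, 60043 passed the limits of 30% mitochondrial UMIs and 200 genes. Doublets (6325) were removed as the highest scores, at 0.8% per 1000 cells, of a score that gives the share of simulated doublets among a cell's neighbours. Free RNA was not removed, since CellBender was not run. Cells were clustered by the Leiden method (leidenalg 0.10.2) on 40 principal components of 3000 variable genes with 15 neighbours at resolution 1.5, into 62 clusters. The 24939 T or NK cells were then clustered on 30 components of 2000 genes into 25 clusters, without the 10 genes or the listed killer-cell genes, and classes were named from fixed markers. Cycling cells formed classes of their own.

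UMIs were summed per class and library where at least 20 cells were present and tested, CKD against AKI, with edgeR 4.0.16 (quasi-likelihood, TMM, filterByExpr, R 4.3.3), Benjamini-Hochberg over all genes tested and a threshold of 0.05. DESeq2 1.42.0 was an alternative. Shares of cells are after thinning each cell to 1000 UMIs. Intervals are exact Poisson or binomial at 95% and cover counting error only, and the limit of a count of 0 is 3 UMIs. Named genes are the 10 members, the listed pathway genes past the threshold (at most 8 a comparison) and the 2 genes most like each member. A gene most like Gzmb is not reported here. On simulated counts with 200 changed genes, 94% of 2-fold changes were recovered in CD8 T-like, 89% in CD4 T-like, 62% in gamma-delta T-like and 32% in NK-like cells, and 10% for the difference between classes. The changed genes were drawn from those at or above the median level. All genes were given the same spread beyond counting error. The percentages therefore do not cover scarcer or more variable genes. The members, lists and tests were chosen with earlier results of these data known.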

Additional observations from a re-analysis of the deposited data

Results flagged for a closer look

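By edgeR's interaction term, the change from AKI to CKD differed between NK-like and CD8 T-like cells for Xcl1 (log2 difference 1.18) and Ccl3 (0.84). The median over all genes in this quasi-likelihood test was 0.17. The Ccl3 call was lost when any 1 library was left out. In CD8 T-like cells alone Ccl3 did not pass (log2 -0.97, edgeR adjusted p = 0.0597). Xcl1 had similar levels in the AKI and CKD libraries of NK-like cells and fell in CD8 T-like cells, while Ccl3 in NK-like cells was 9.56 and 11 in AKI and 7.73 and 9.21 in CKD, against 2.18, 2.55, 0.954 and 1.41 in CD8 T-like cells.

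The ratio of mean Nkg7 levels, CKD over AKI, was 0.838 in CD4 T-like cells and 0.929 in NK-like cells, where both CKD libraries were below both AKI libraries, and 1.22 in gamma-delta T-like cells, where both were above. Nkg7 passed the test in none of these classes and the difference between them was not tested. In gamma-delta T cells gated by Trdc the groups overlapped (2.88 and 4.85 in AKI, 3.47 and 4.44 in CKD). The gamma-delta T-like level of CKD 1 was below its tubule background.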

How the results depend on the processing

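Of 437 repeats of the members' tests under other settings, 414 stayed on their side of the threshold, 19 newly passed and 4 were lost, all 4 on leaving out an AKI library. Of the 40 results, 20 changed sign in at least 1 setting, none of them a called change. The number of all genes called moved more. In CD8 T-like cells the 267 genes became 540 with no filter on low counts, 2070 with cells gated by markers, 1066 with cycling cells included (a setting chosen after seeing the data) and 47 to 1982 on leaving out 1 library. In CD4 T-like cells 22 became 125 with DESeq2, 259 without the filter, 112 with the gate and 1 to 609 on leaving out 1 library. In gamma-delta T-like cells 1 became 3 without the filter, 3 with the gate and 2 to 41 on leaving out 1 library. In NK-like cells 2 became 0 with DESeq2 and 6 to 11 on leaving out 1 library. For the difference between NK-like and CD8 T-like cells 38 became 73 with cycling cells and 16 to 30 on leaving out 1 library. A replicate block on the library numbers gave 515 genes in CD4 T-like, 0 in gamma-delta T-like and 18 in NK-like cells and 82 for the difference. Deviations of libraries with the same number correlated at 0.22 in CD8 T-like, 0.20 in CD4 T-like, 0.04 in gamma-delta T-like and 0.13 in NK-like cells. With 2 pairs and no label that ties a number to a litter or batch, the libraries share only a number. With the block, Gzmb (0.88, edgeR adjusted p = 0.0147), Fasl (-0.68, 0.00117) and Klrk1 (-1.10, 0.0363) passed in CD4 T-like cells, Gzmb passed for the difference (0.91, 0.00562), and without the filter Gzmb (0.91, 0.0213) and Fasl (-0.63, 0.0243) passed in CD4 T-like cells. The cause of these shifts was not tested. The gate moved 16 of the 40 member levels by more than the spread between libraries. In NK-like cells and for the difference the gate was not run, because AKI 2 kept under 20 gated NK cells. In CD4 T-like and NK-like cells Gzmm rested on too few UMIs to compare. In gamma-delta T-like cells the low levels hold for the Il17a-led cluster and not for the Trdc gate.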
